A study of Homo sapiens with 12 samples.

Results

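The mRNA levels of 10 enzymes that make serine, asparagine, proline and cysteine or feed the folate cycle were followed in TE-1 cells in which IFI6 was raised or lowered. The enzymes were PHGDH, PSAT1, PSPH, SHMT2, MTHFD2, ASNS, ALDH18A1, PYCR1, CBS and CTH, taken by gene name, 10 of the 19771 protein-coding genes measured. This list and the others below were drawn up with earlier results of these data known. All 10 had a mean of at least 1 FPKM (mapped fragments scaled for transcript length and library size) over the 12 libraries and were tested among 10925 such genes. Their 154 listed transcripts, of 259360 in all, were also examined, and 59 of them reached the same minimum.

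TE-1 is an established human oesophageal cancer cell line. Cells received an IFI6 overexpression vector (OE_IFI6), the overexpression control (OE_control), an IFI6 interference vector (sh_IFI6) or the interference control (sh_control) and were cultured for 48 h before total RNA was sequenced. Each group had 3 libraries. The design asked which genes follow the level of IFI6, an interferon-induced gene. IFI6 itself was measured at 309, 268 and 358 FPKM in OE_IFI6 libraries, against 27.3, 17.9 and 28.8 FPKM in OE_control libraries. It had 15.1, 13.9 and 14.7 FPKM in sh_IFI6 libraries, against 24.9, 24.1 and 21.2 FPKM in sh_control libraries. Neither pair of groups overlapped, and each gave an exact permutation p of 0.1 (two-sided), the smallest that 3 against 3 libraries allow. In the fit across all genes the log2 fold change was 3.62 ± 0.17 (SE) with overexpression (limma, adjusted p = 4.73e-07) and -0.64 ± 0.17 with interference (limma, adjusted p = 0.818), so the knockdown did not pass the threshold.

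Libraries held 10650 to 10987 protein-coding genes at 1 FPKM or more. On the leading principal component, which held 23.1% of the variance, the 3 OE_control libraries scored 22.2 to 30.6 and the other 9 scored -11.3 to -5.89. Counts for the enzymes, their transcripts and the listed pathway genes are therefore also given for OE_IFI6 against sh_control, which leaves those libraries out. The simple epithelial keratins KRT8 (706 to 1157 FPKM) and KRT18 (355 to 543 FPKM) were high in all 12 libraries. KRT19, of the same class, had only 0.124 to 0.774 FPKM. Of the squamous markers, KRT5, KRT6A and SOX2 were listed at 0 in all 12 libraries and TP63 reached at most 0.332 FPKM, whereas SFN had 43.1 to 67.8 FPKM. KRT14 reached at most 0.018 FPKM and KRT13 at most 0.506 FPKM, and KRT17 had 0.492 to 4.10 FPKM. EPCAM was listed at 0 and CDH1 reached at most 0.171 FPKM. The summed level of 5 fibroblast markers was 5.54 to 6.91 FPKM in OE_IFI6 libraries and 5.57 to 6.36 FPKM in OE_control libraries. In sh_IFI6 it was 5.78 to 7.19 FPKM and in sh_control 6.18 to 7.56 FPKM. The summed level of 4 immune markers was 0.551 to 0.977 FPKM in OE_IFI6 libraries and 1.44 to 1.72 FPKM in OE_control libraries. It was 0.957 to 2.15 FPKM in sh_IFI6 and 0.724 to 1.12 FPKM in sh_control. Most of it was CD68, a lysosomal protein of macrophages and other cells, at 0.551 to 2.09 FPKM over the 12 libraries. The T cell marker CD3E was listed at 0 throughout and the leukocyte marker PTPRC reached at most 0.192 FPKM. The part of this difference in the results was not tested.

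Serine is made from the glycolytic intermediate 3-phosphoglycerate by PHGDH, PSAT1 and PSPH acting in turn. SHMT2 and MTHFD2 pass a carbon of serine into the mitochondrial folate cycle. ASNS makes asparagine from aspartate and glutamine, ALDH18A1 and PYCR1 catalyse early and final steps of proline synthesis, and CBS with CTH turns homocysteine and serine into cysteine. Many of these genes are known targets of ATF4, a transcription factor whose translation increases when cells lack amino acids or face endoplasmic reticulum stress. ATF4 acts with C/EBP proteins at composite elements, of which the one upstream of ASNS is a much studied case.

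The upstream sequences of the enzymes whose mRNA fell in OE_IFI6 against OE_control are shown because all were called in the same direction. RefSeq upstream windows (GRCh38.p14) were matched for 7 of the 10 enzymes, with 10 windows in all. PSPH, SHMT2 and PYCR1 had no entry. Each window holds the 250 bases before the start of 1 RefSeq entry, and a gene can have more than 1 entry. Capitals mark matches to TGATGNAA, a core like that of the ATF4 element, searched on both strands (TTNCATCA on the other).
ASNS, chr7:97872409-97872658, minus strand: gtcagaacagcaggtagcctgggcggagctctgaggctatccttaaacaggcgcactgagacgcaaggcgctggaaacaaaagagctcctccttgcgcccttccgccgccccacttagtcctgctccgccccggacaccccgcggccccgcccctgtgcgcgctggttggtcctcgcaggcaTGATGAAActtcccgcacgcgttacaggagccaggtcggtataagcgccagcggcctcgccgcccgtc
PHGDH, chr1:119711684-119711933, plus strand: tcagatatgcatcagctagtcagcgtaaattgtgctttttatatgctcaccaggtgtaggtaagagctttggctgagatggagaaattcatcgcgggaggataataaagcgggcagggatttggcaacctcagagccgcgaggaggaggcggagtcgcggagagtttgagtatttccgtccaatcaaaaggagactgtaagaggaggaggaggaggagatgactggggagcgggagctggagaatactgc
PSAT1, chr9:78296875-78297124, plus strand: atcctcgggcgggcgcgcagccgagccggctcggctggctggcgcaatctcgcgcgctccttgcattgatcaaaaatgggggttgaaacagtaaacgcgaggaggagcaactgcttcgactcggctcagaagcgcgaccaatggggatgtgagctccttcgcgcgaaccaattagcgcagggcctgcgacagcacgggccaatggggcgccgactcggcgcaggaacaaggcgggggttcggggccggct
CTH, chr1:70411018-70411267, plus strand: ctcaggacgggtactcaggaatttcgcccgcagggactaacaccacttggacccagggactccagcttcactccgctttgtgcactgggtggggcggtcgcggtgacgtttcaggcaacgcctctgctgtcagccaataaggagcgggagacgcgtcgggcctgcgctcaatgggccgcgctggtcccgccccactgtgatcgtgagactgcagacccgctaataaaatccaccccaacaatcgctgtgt
The ASNS window had 1 match, TGATGAAA, with 60 bases between the match and the start. The deposited transcripts ASNS-201 and ASNS-209 begin inside this window. Likewise PHGDH-233, PHGDH-208, PHGDH-209 and PHGDH-232 begin inside the PHGDH window, and CTH-203 inside the CTH window. None of the other 9 windows of the enzymes held these letters. Among them was another ASNS window (chr7:97872166-97872415, minus strand), which is not printed. Among genes treated below that also fell, GOT1 had 1 match, TTGCATCA, with 190 bases between the match and the start. The windows of ATF4, DDIT3, TRIB3 and PPP1R15A held no match, and sequence outside the 250 bases was not searched. Among all 35116 RefSeq promoters, 3.14% held a match in the 250 bases upstream, and a match is a description of the letters only.

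PHGDH was the most abundant of the 10 mRNAs, with a mean of 209 FPKM over the 12 libraries and rank 216 among the genes tested. FPKM is per length, so levels of different genes can be set side by side. SHMT2 followed at a mean of 187 FPKM and PYCR1 at 144 FPKM, and the library ranges of these neighbours overlapped. PYCR1 (113 to 188 FPKM) lay above CTH (56.1 to 95.9 FPKM) in every library. CTH, MTHFD2 and ALDH18A1 had means of 69.8, 61.3 and 57.6 FPKM with overlapping ranges. CBS averaged 36.5 FPKM, ASNS 26.8 FPKM, PSAT1 21.2 FPKM and PSPH 14.9 FPKM. The range of ASNS was the widest of the 10 on a fold scale, 13.3 to 58.4 FPKM.

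With IFI6 overexpression, 4 of the 10 enzymes fell against OE_control and 0 rose. They were ASNS, PHGDH, PSAT1 and CTH, which act in asparagine, serine and cysteine synthesis. Over all genes tested, 3.56% fell and 4.10% rose at the same threshold (limma, adjusted p under 0.05). The enzymes were listed with earlier results of these data known, so these shares are a description and not an independent test. The median log2 fold change of the 10 was -0.39 and that of all genes 0.05, and 9 of the 10 were below 0. Library values of 5 enzymes did not overlap and were lower in OE_IFI6, while 9.78% of all genes did so.

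ASNS showed the largest difference of the 10. Its mRNA (ENSG00000070669, chr7:97851677-97872542 in the deposited coordinates) had 17.5, 17.6 and 19.7 FPKM in OE_IFI6 libraries, against 58.4, 55.3 and 51.6 FPKM in OE_control libraries. Every OE_IFI6 library was below every OE_control library, and the OE_IFI6 mean was 33.2% of the OE_control mean. The log2 fold change was -1.54 ± 0.14 (SE, n = 3 each; limma, adjusted p = 9.99e-05). In the other pair of groups ASNS had 15.2, 22.1 and 18.8 FPKM in sh_IFI6 libraries, against 17.5, 14.0 and 13.3 FPKM in sh_control libraries. These overlapped, and all 6 values lay far below OE_control.

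PHGDH, which catalyses the entry step of serine synthesis (ENSG00000092621, chr1:119648358-119744226), had 140.5, 181 and 211 FPKM in OE_IFI6 libraries, against 291, 278 and 290.4 FPKM in OE_control libraries. The groups did not overlap, and the log2 fold change was -0.71 ± 0.14 (limma, adjusted p = 0.00999). The SD was 35.6 FPKM in OE_IFI6 and 7.31 FPKM in OE_control. PHGDH had 177, 194 and 217 FPKM in sh_IFI6 libraries, against 165, 183 and 176 FPKM in sh_control libraries.

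PSAT1, the aminotransferase of the next step (ENSG00000135069, chr9:78297125-78330093), had 18.9, 18.8 and 19.1 FPKM in OE_IFI6 libraries, against 27.1, 33.8 and 31.1 FPKM in OE_control libraries. Its OE_IFI6 libraries differed by little and lay below all OE_control libraries, with a log2 fold change of -0.66 ± 0.10 (limma, adjusted p = 0.00248). In sh_IFI6 it had 17.8, 17.1 and 17.6 FPKM, against 16.7, 17.998 and 18.5 FPKM in sh_control. PSPH, the phosphatase that ends the pathway (ENSG00000146733, chr7:56011051-56051604), had 14.0, 14.1 and 14.5 FPKM in OE_IFI6 libraries, against 20.2, 16.2 and 20.1 FPKM in OE_control libraries. The groups did not overlap, but the log2 fold change of -0.38 ± 0.11 did not pass (limma, adjusted p = 0.0667). Without the OE_control replicate 2 library, which was nearest to OE_IFI6, PSPH passed at -0.48 (limma, adjusted p = 0.0302). It did not pass in the other 21 alternatives, in which the adjusted p reached 0.248.

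**Figure D1:**
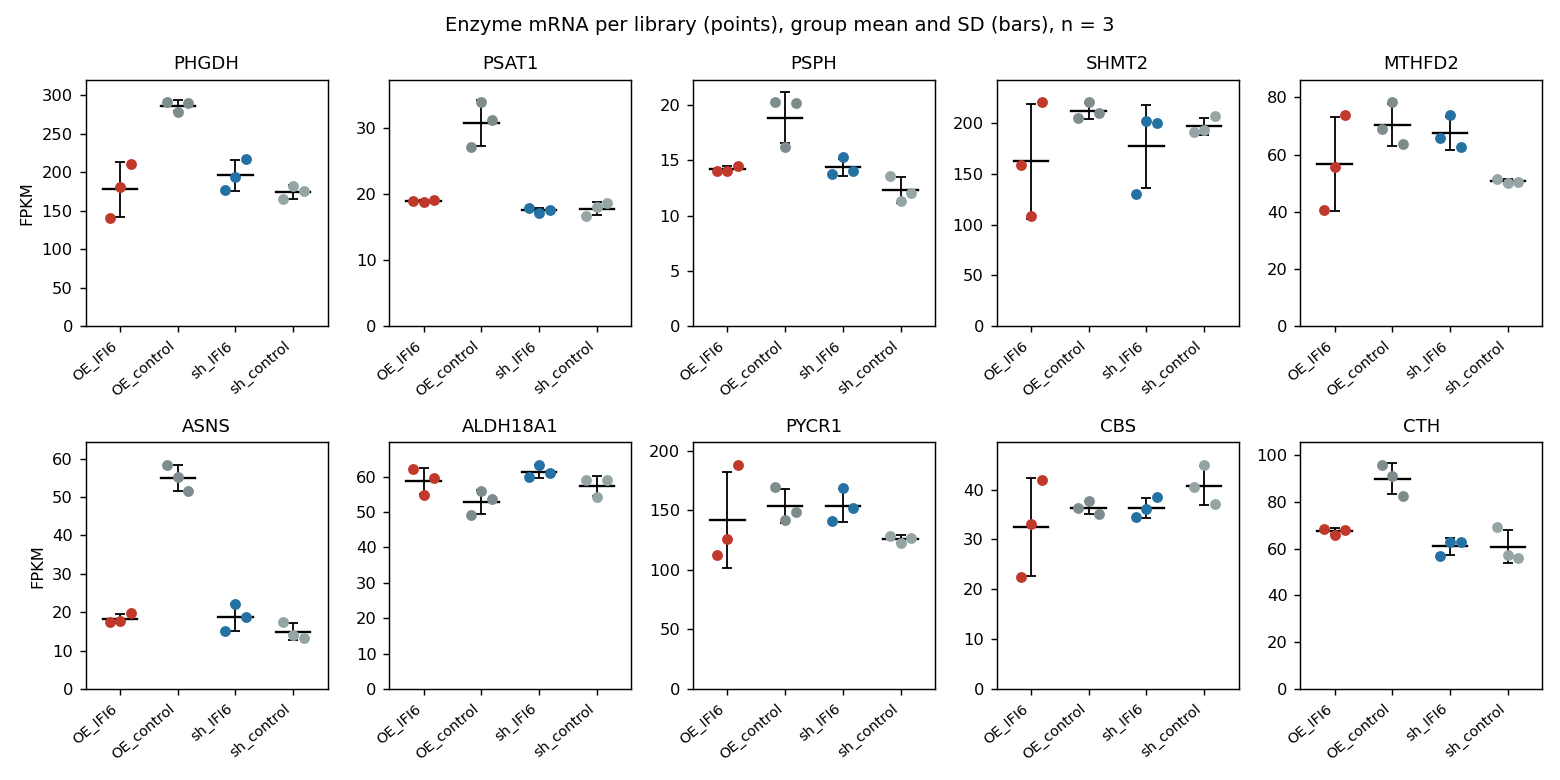
FPKM of the 10 enzymes in each library (points) of the 4 groups, with the group mean and SD (black bars, n = 3). ASNS, PHGDH, PSAT1 and CTH were lower in all OE_IFI6 libraries than in all OE_control libraries, and the OE_control libraries stood above both interference groups for these genes.

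CTH, which releases cysteine from cystathionine (ENSG00000116761, chr1:70411218-70439851), had 68.3, 65.9 and 68.0 FPKM in OE_IFI6 libraries, against 95.9, 91.1 and 82.7 FPKM in OE_control libraries. The log2 fold change was -0.41 ± 0.11 (limma, adjusted p = 0.0369). This call ended in 13 of 22 alternative fits, among them 10 of the 12 that left out a library (all but OE_control replicate 3 and sh_control replicate 1), where the value stayed between -0.42 and -0.36. In the interference groups CTH had 57.0, 62.9 and 63.1 FPKM in sh_IFI6, against 69.2, 57.5 and 56.1 FPKM in sh_control. CBS, which makes cystathionine (ENSG00000160200, chr21:43053191-43076943), had 22.4, 33.0 and 42.0 FPKM in OE_IFI6, against 36.3, 37.7 and 35.2 FPKM in OE_control. These overlapped and the fold change did not pass (-0.20 ± 0.18; limma, adjusted p = 0.550).

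CBS has a near-identical annotated copy, CBSL, and how reads were divided between the copies is unknown. CBSL was listed at 12.4, 19.5 and 14.3 FPKM in OE_IFI6 libraries, against 18.6, 0 and 0 FPKM in OE_control libraries. In the interference groups it had 25.6, 31.7 and 31.5 FPKM in sh_IFI6, against 20.6, 0.212 and 18.9 FPKM in sh_control. The sum of both copies was 34.8, 52.5 and 56.3 FPKM in OE_IFI6, against 54.9, 37.7 and 35.2 FPKM in OE_control. It gave a log2 fold change of 0.16 ± 0.20 (limma, adjusted p = 0.689), opposite in sign to CBS alone, and did not pass in any comparison.

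The folate and proline enzymes did not pass in this comparison. SHMT2 (ENSG00000182199, chr12:57229573-57234935) had 158, 108 and 221 FPKM in OE_IFI6, against 205, 221 and 210.3 FPKM in OE_control. MTHFD2 (ENSG00000065911, chr2:74198610-74217565) had 40.8, 55.7 and 73.7 FPKM in OE_IFI6, against 68.8, 78.3 and 63.8 FPKM in OE_control. Both pairs overlapped, with log2 fold changes of -0.44 ± 0.23 for SHMT2 and -0.34 ± 0.17 for MTHFD2 (limma, adjusted p = 0.269 for each). ALDH18A1 (ENSG00000059573, chr10:95605941-95656711) had 62.2, 54.9 and 59.5 FPKM in OE_IFI6, against 49.1, 55.9 and 53.5 FPKM in OE_control, and was the only one of the 10 with a value above 0 (0.15 ± 0.09; limma, adjusted p = 0.360). PYCR1 (ENSG00000183010, chr17:81932384-81942412) had 113, 126 and 188 FPKM in OE_IFI6, against 169.7, 142 and 149 FPKM in OE_control (log2 fold change -0.14 ± 0.16; limma, adjusted p = 0.662).

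The OE_IFI6 libraries themselves varied widely for these genes. The coefficient of variation was 34.7% for SHMT2, 30.3% for CBS, 29.1% for MTHFD2 and 28.4% for PYCR1 in OE_IFI6, against 3.81%, 3.42%, 10.5% and 9.41% in OE_control. OE_IFI6 replicate 3 was the highest of its group for all 4 and for PHGDH. Without it MTHFD2 passed against OE_control at -0.55 (limma, adjusted p = 0.0443), whereas without OE_IFI6 replicate 1 its value was -0.13 (adjusted p = 0.658), and it did not pass in any of the other 21 alternatives. SHMT2 ranged over its 22 alternatives between -0.69 without OE_IFI6 replicate 3 and -0.18 without OE_IFI6 replicate 2, and did not pass in any.

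Set against sh_control, OE_IFI6 showed 0 changed enzymes by limma, with 0 at an unadjusted p under 0.05. Over all genes, 0.0183% were called and 4.60% had an unadjusted p under 0.05. ASNS had a log2 fold change of 0.28 with a 95% interval of -0.03 to 0.60, and PHGDH 0.01 with an interval of -0.29 to 0.31. For PSAT1 the interval was -0.13 to 0.31 and for CTH -0.08 to 0.38. Falls of the size measured against OE_control lay outside the intervals of all 4 genes. OE_IFI6 and sh_control differ in vector type as well as in IFI6, and these cannot be told apart here. CBS had the lowest value of the 10 (-0.36) and ASNS the highest. ASNS, PSAT1 and PSPH were slightly higher in every OE_IFI6 library than in every sh_control library, as were 3% of all genes.

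The 2 control groups differed from each other. Against sh_control, OE_control had 5 enzymes higher and 0 lower, where 2.75% of all genes rose and 4.78% fell. The log2 fold changes were 1.82 ± 0.14 for ASNS (limma, adjusted p = 3.20e-05), 0.75 ± 0.10 for PSAT1, 0.71 ± 0.14 for PHGDH, 0.58 ± 0.11 for PSPH and 0.56 ± 0.11 for CTH. Adjusted p was 0.00131 to 0.0118 for the last 4 (limma). The median of the 10 was 0.51 and that of all genes -0.09. Together with MTHFD2 and PYCR1, 7 enzymes were higher in every OE_control library than in every sh_control library, as were 10.1% of all genes. This comparison shares OE_control with the overexpression comparison, so the values are given side by side and are not independent. The control vectors and whatever else set these 2 groups apart cannot be told apart.

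**Figure D2:**
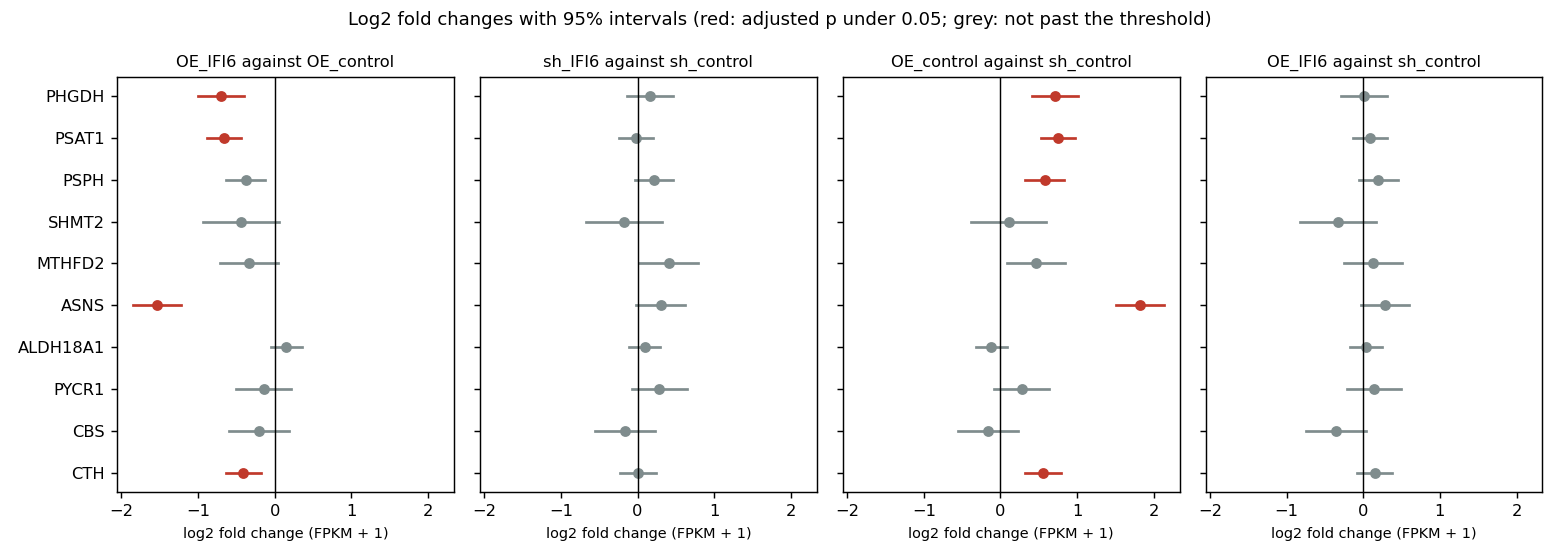
Log2 fold change of FPKM + 1 (horizontal axis) for each enzyme with its 95% interval in 4 comparisons, red where the limma adjusted p was under 0.05. ASNS lies at -1.54 in OE_IFI6 against OE_control, at 1.82 in OE_control against sh_control and at 0.28 in OE_IFI6 against sh_control.

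With interference, 0 of the 10 enzymes passed by limma, as did 0% of all genes, and 1 enzyme had an unadjusted p under 0.05 where 5.15% of all genes did. That enzyme was MTHFD2, with 65.9, 73.9 and 62.6 FPKM in sh_IFI6 libraries, against 51.5, 50.0 and 50.4 FPKM in sh_control libraries. The groups did not overlap, and the log2 fold change was 0.40 ± 0.17 (limma, adjusted p = 0.818). PSPH, ALDH18A1 and PYCR1 were also higher in every sh_IFI6 library than in every sh_control library, as were 9.46% of all genes. PSPH had 13.8, 15.2 and 14.0 FPKM in sh_IFI6, against 13.6, 11.3 and 12.0 FPKM in sh_control. PYCR1 had 141, 169 and 152 FPKM in sh_IFI6, against 129, 122 and 127 FPKM in sh_control. The gap between the ALDH18A1 groups was under 1 FPKM. SHMT2 overlapped, with 129.9, 202 and 199.7 FPKM in sh_IFI6 and 191, 193 and 207 FPKM in sh_control.

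The difference between the overexpression effect and the knockdown effect was tested for each gene. It passed for 3 enzymes, all below 0, where 1.51% of all genes passed below 0 and 1.18% above. ASNS gave -1.84 ± 0.20 (log2 scale, limma, adjusted p = 0.00094), PHGDH -0.87 ± 0.19 (adjusted p = 0.0369) and PSAT1 -0.64 ± 0.14 (adjusted p = 0.0374). The ASNS call held in all 21 alternatives, whereas that of PHGDH ended in 12 and that of PSAT1 in 11. This difference also uses OE_control.

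A list of 56 other genes of the same pathways and of ATF4 signalling had 48 genes tested. With overexpression 5 of them fell and 1 rose, where 3.56% of all genes fell and 4.10% rose, and the list's median was 0.01 where that of all genes was 0.05. Of 12 regulators 4 fell, namely ATF4, DDIT3, TRIB3 and PPP1R15A. Of 16 folate genes and 7 proline and glutamate genes, 0 passed (limma). With interference 0 of the 48 passed, as did 0% of all genes (limma). OE_IFI6 against sh_control also gave 0 of the 48, where 0.0183% of all genes were called (limma). OE_control against sh_control gave 5 genes of the list higher (the 4 regulators and GOT1) and 1 lower, where 2.75% of all genes rose and 4.78% fell.

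ATF4 mRNA had 221, 247 and 276 FPKM in OE_IFI6 libraries, against 329.9, 312 and 332 FPKM in OE_control libraries. Its log2 fold change was -0.39 ± 0.10 (limma, adjusted p = 0.0325). DDIT3, a stress-induced transcription factor downstream of ATF4, had 3.38, 4.81 and 4.15 FPKM in OE_IFI6, against 17.3, 19.1 and 21.8 FPKM in OE_control. Its log2 fold change was -2.002 ± 0.14 (limma, adjusted p = 1.23e-05). TRIB3, a pseudokinase that restrains ATF4, fell by 0.83 on the log2 scale, and PPP1R15A, a phosphatase subunit that reverses eIF2 phosphorylation, fell by 1.38. CEBPB (-0.34) and MYC (0.98 ± 0.58) did not pass. In OE_IFI6 against sh_control the log2 fold changes were 0.04 for ATF4, -0.19 for DDIT3 and -0.09 for TRIB3, none of which passed (limma).

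GOT1, which makes aspartate, the precursor of asparagine, averaged 48.3 ± 6.15 FPKM in OE_IFI6 and 63.6 ± 1.41 FPKM in OE_control (SD, n = 3 each), a log2 fold change of -0.40 (limma, adjusted p = 0.0455). MAT2B, the regulatory subunit of the enzyme that makes S-adenosylmethionine, rose by 0.68 and averaged 28.1 ± 5.22 FPKM in OE_IFI6 and 17.1 ± 1.62 FPKM in OE_control (limma, adjusted p = 0.0245).

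**Figure D3:**
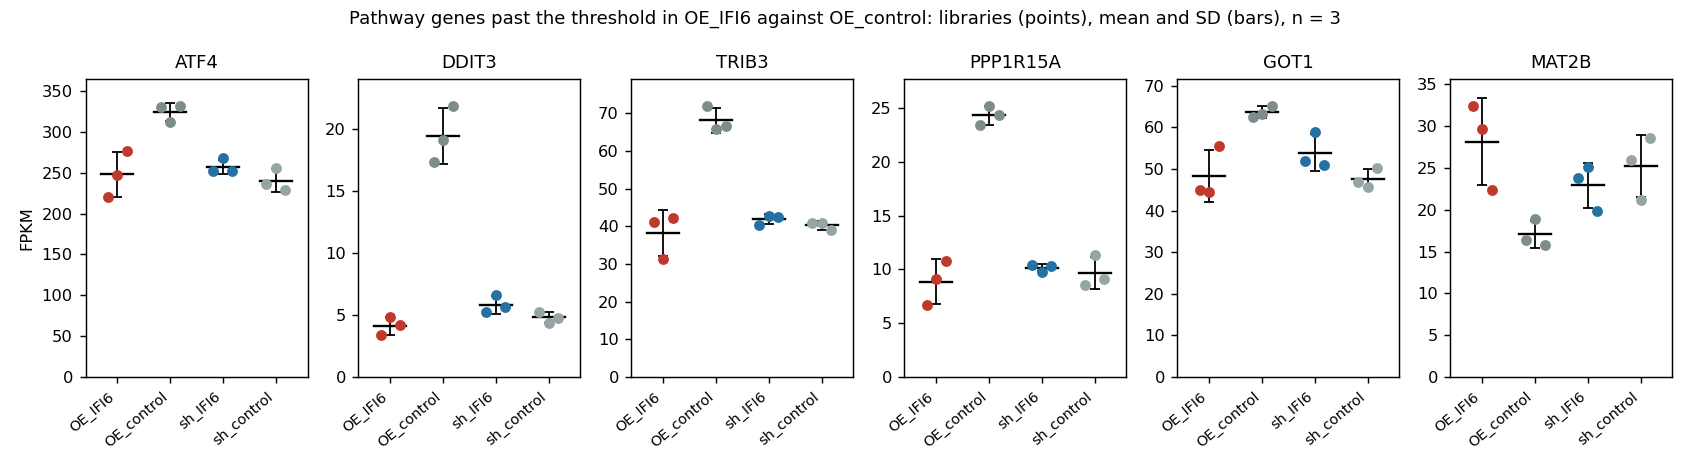
FPKM of the 6 listed pathway genes that passed in OE_IFI6 against OE_control, per library (points) with group mean and SD (n = 3). Those of ATF4, DDIT3, TRIB3, PPP1R15A and GOT1 are lower in every OE_IFI6 library than in every OE_control library, and MAT2B is higher.

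Likeness over the 12 libraries was measured as the root mean square difference of log2(FPKM + 1) after centring each gene on its mean. Genes near to ASNS included OASL (0.18), MICB (0.19), DUSP5 (0.24) and DDIT3 (0.25). Those nearest to PHGDH were BAK1 (0.08), TBC1D2 (0.10), FKBP4 (0.10), SERTAD3 (0.10) and DUSP1 (0.11). Among the enzymes, PSAT1 was nearest to ASNS at rank 83 (0.45) and also nearest to PHGDH at rank 169 (0.19). The standard deviation over the 12 libraries was 0.76 for ASNS and 0.34 for PHGDH on the log2 scale, where the median of all genes was 0.23.

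Transcript values give a finer but less certain view, since reads shared by transcripts of a gene were divided by estimation. For the 10 enzymes the deposited gene value and the sum of the transcripts differed by at most 5.3e-05 FPKM. With overexpression, 1 of the 59 tested transcripts of the enzymes passed, PSAT1-202, where 0.563% of all 28221 transcripts fell and 0.599% rose. PSAT1-202, the 370-codon form, had 16.6, 16.7 and 17.5 FPKM in OE_IFI6, against 24.3, 28.0 and 25.6 FPKM in OE_control (log2 fold change -0.59 ± 0.12; limma, adjusted p = 0.0475). This call ended when no filter, quantile normalization or the replicate block was used, and in 7 of the 12 fits that left out a library (OE_IFI6 replicate 1 or 2, OE_control replicate 1 or 2, sh_IFI6 replicate 3, sh_control replicate 1 or 2). It held 78.7% to 92.0% of PSAT1 in every library, and PSAT1-201 held the rest.

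ASNS-209, which encodes 540 codons, was listed at 0, 0 and 3.50 FPKM in OE_IFI6 libraries, against 26.3, 35.6 and 33.8 FPKM in OE_control libraries. The groups did not overlap, yet it narrowly missed the threshold (log2 fold change -4.31 ± 0.86; limma, adjusted p = 0.05002; both depend on the 1 added before taking logs). It was listed at 0 in all 3 sh_control libraries and at 0, 11.9 and 0.878 FPKM in sh_IFI6. Against sh_control, OE_control passed for ASNS-209 and PSAT1-202 (limma, adjusted p = 0.0302 and 0.0228), where 0.482% of all transcripts rose and 0.549% fell. Neither passed without OE_control replicate 2, sh_control replicate 1 or sh_control replicate 2. With interference 0 of the 59 passed, where 0.0283% of all transcripts did, and 3 had an unadjusted p under 0.05, where 5.16% of all transcripts had one. For the difference of effects and for OE_IFI6 against sh_control the count was also 0 (limma), where 0.273% and 0.0532% of all transcripts were called. At an unadjusted p under 0.05 the difference of effects had 9 of the 59, where 10.8% of all transcripts had one, and OE_IFI6 against sh_control had 2, where 5.02% had one.

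The transcripts with the 561-codon reading frame of ASNS (ASNS-201, ASNS-202 and ASNS-203) summed to 14.7, 12.6 and 11.9 FPKM in OE_IFI6, against 5.77, 12.5 and 10.9 FPKM in OE_control. These overlapped, so in the deposited estimates the ASNS gap between the groups lay mainly in ASNS-209 and, in 1 OE_control library, ASNS-213. The 561-codon forms made up 60.6% to 83.5% of ASNS in OE_IFI6 libraries (mean 71.8%) and 9.88% to 22.6% in OE_control libraries (mean 17.9%). They made up 12.5%, 25.7% and 78.8% in sh_IFI6 libraries (mean 38.99%). In sh_control libraries they made up 74.2% to 75.5% (mean 74.6%), so the interference groups overlapped. Estimates for single transcripts were unstable within groups: 5 different ASNS transcripts led across the 12 libraries. The share of ASNS that would have to move between transcripts to turn one library into another had a median of 64.1% within groups (8.10% to 78.5%) and of 72.6% between groups. This measure was not tested.

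**Figure D4:**
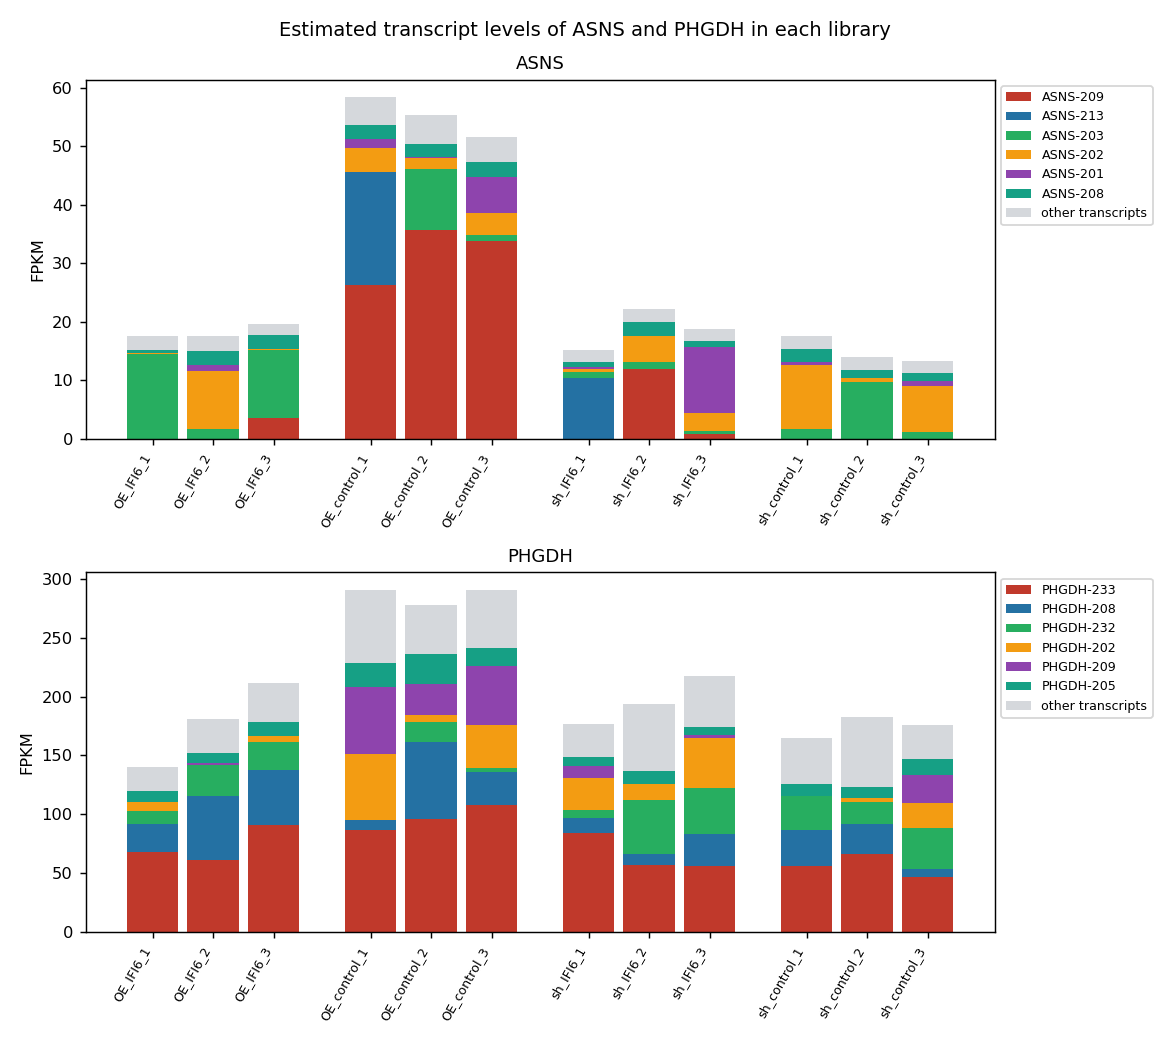
Stacked FPKM of the 6 most abundant transcripts of ASNS and of PHGDH, and of all others, in each library. ASNS-209 (red) has 26.3 to 35.6 FPKM in OE_control and at most 3.50 FPKM in OE_IFI6, while the leading ASNS transcript changes among libraries of 1 group.

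PHGDH was led in all 12 libraries by PHGDH-233, annotated as a retained intron, with 67.5, 61.2 and 90.4 FPKM in OE_IFI6, against 86.7, 96.3 and 108 FPKM in OE_control. PHGDH-209, a 429-codon form, was listed at 0, 1.95 and 0 FPKM in OE_IFI6, against 56.9, 25.7 and 49.9 FPKM in OE_control. These did not overlap, but the change did not pass (log2 fold change -4.90 ± 1.25; limma, adjusted p = 0.110). PHGDH-209 reached 24.2 FPKM in 1 sh_control library and 0 in the other two. The 533-codon forms, PHGDH-208 and PHGDH-223, made up 17.3% to 29.9% of PHGDH in OE_IFI6 libraries (mean 23.1%), against 2.73% to 23.5% in OE_control libraries (mean 12.0%), which overlapped. Their mean share was 15.7% in sh_IFI6 and 18.6% in sh_control. The share that would have to move between transcripts was 29.3% within groups and 33.5% between groups (medians).

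Other enzymes fell into steady and unsteady ones. MTHFD2-201 made up 88.0% to 94.8% of MTHFD2 in every library, with MTHFD2-205 next at a mean of 2.38 FPKM. PSPH-202 made up 59.9% to 87.4% of PSPH and was its only transcript with a mean of 1 FPKM or more, with PSPH-201 next at 0.929 FPKM. ALDH18A1 was led by ALDH18A1-201 in all 12 libraries (54.0% to 72.6%), and ALDH18A1-202 averaged 19.2 FPKM. CTH-201 was listed at 26.1, 0 and 0 FPKM in OE_IFI6, against 0, 37.5 and 37.2 FPKM in OE_control, with CTH-202 taking most of the rest in each library. PYCR1 was led by PYCR1-204 in 7 libraries, and in OE_IFI6 replicate 2, sh_IFI6 replicate 1 and sh_control replicate 3 by PYCR1-217, and PYCR1-205 was the second most abundant with a mean of 41.8 FPKM. SHMT2-229, annotated as subject to nonsense-mediated decay, led in 11 libraries and was listed at 0 in sh_IFI6 replicate 1, where SHMT2-201 had 98.9 FPKM. CBS-203 was listed at 0, 0 and 17.8 FPKM in OE_IFI6, against 11.8, 12.7 and 19.0 FPKM in OE_control. It had 0.064, 0 and 0 FPKM in sh_IFI6, against 15.6, 21.0 and 16.3 FPKM in sh_control. The interference groups did not overlap, but the change did not pass (limma). CBS-204 averaged 9.84 FPKM over the 12 libraries. The share of CBS that would have to move between transcripts was 24.3% within groups and 46.9% between groups (medians), which was not tested.

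**Figure D5:**
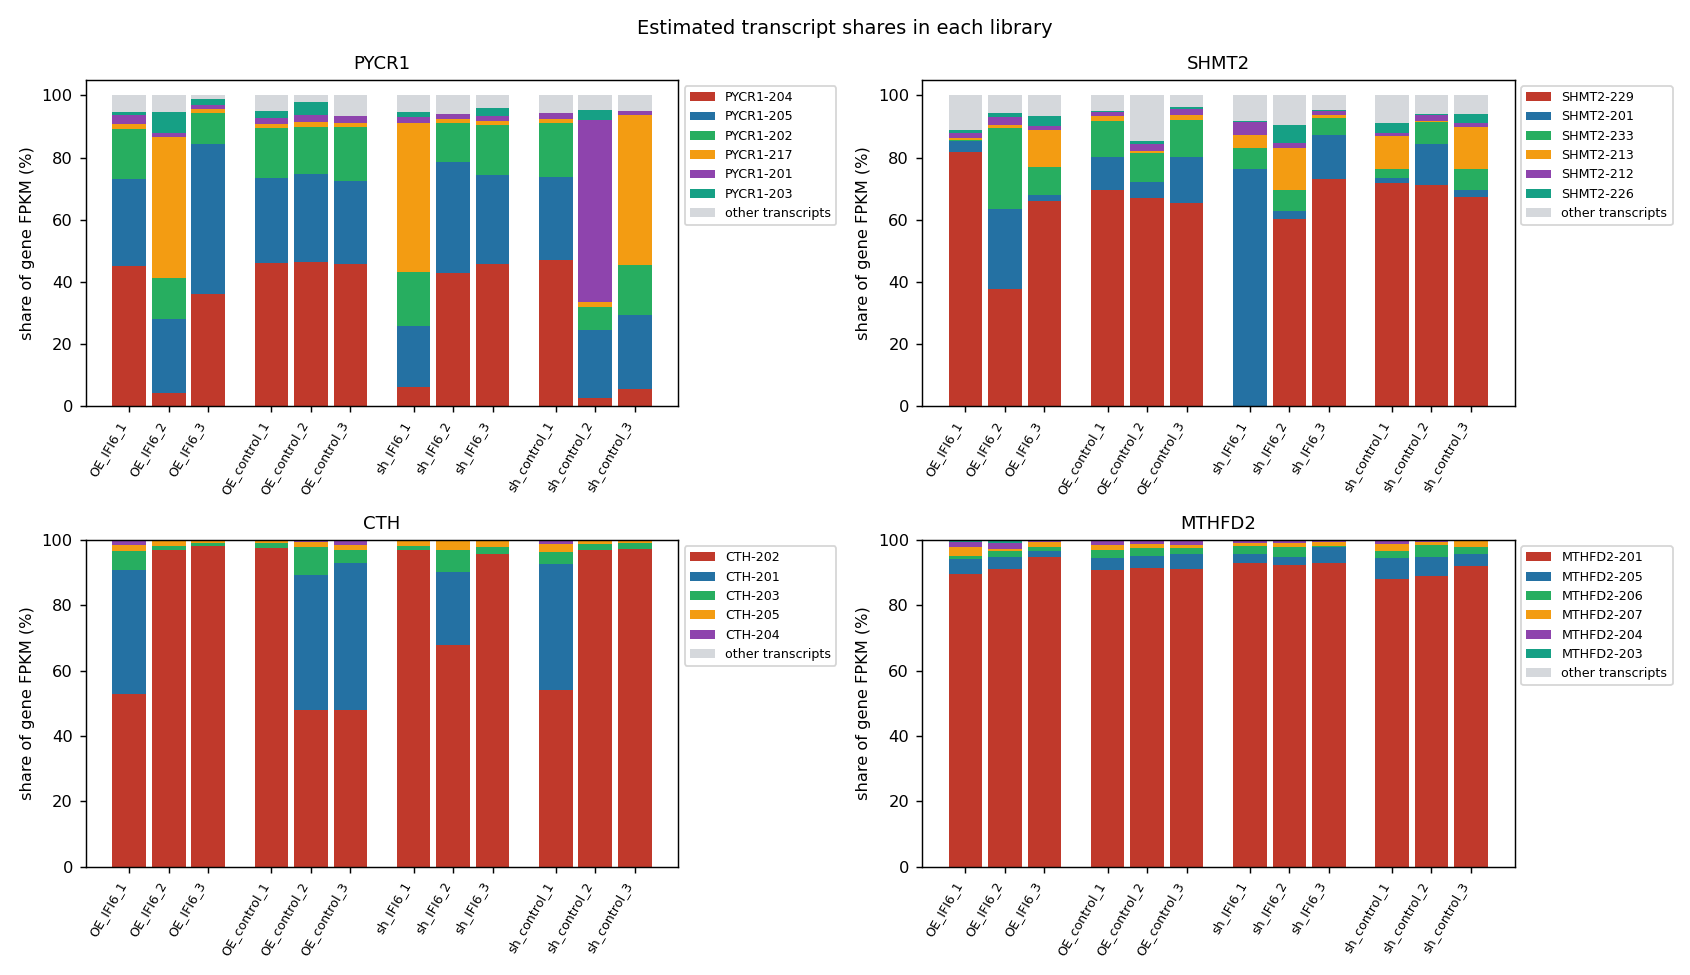
Share of each gene's FPKM held by its transcripts (vertical axis, percent) in each library for PYCR1, SHMT2, CTH and MTHFD2. MTHFD2-201 stays between 88.0% and 94.8%, whereas the leading transcripts of PYCR1 and SHMT2 switch between libraries of 1 group.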

How the data were processed

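RNA levels were read from FPKM values computed by the authors for genes and transcripts, in 12 libraries of 4 groups of 3 taken from the sample titles. Per the submitters' processing notes the tools were HISAT2, StringTie, Cuffdiff and edgeR, whose versions and roles are not stated. Build, annotation and strand use were not given in the sources used. Of the enzymes' 154 transcripts, 152 had identifiers of GENCODE release 29 (GRCh38) and 146 the same bounds, and transcript types and reading frames were taken from there. Nothing in the labels says whether cultures were separate, and p-values therefore reflect the spread among libraries, possibly a technical one. A lower level in bulk RNA can mean fewer cells with the mRNA or less per cell, which cannot be told apart.

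Genes (10925 of 19771) and transcripts (28221 of 259360) averaging 1 FPKM or more were tested as log2(FPKM + 1), a scale that understates changes of low genes. Limma 3.58.1 in R 4.3.3 (with data.table version 1.17.8) was used to fit 1 group-means model with a trended prior and 8 residual degrees of freedom. Tests were two-sided, with Benjamini-Hochberg adjustment over all features tested and a threshold of 0.05. Read counts were not used here: at the best step, 6.20% to 29.4% of low values lay within 1% of whole steps, so whole reads were not recovered, the depth is unknown and no count test was run. The fit was tested on simulated data.

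The members and lists were chosen with earlier results of these data known. All 10 enzymes, IFI6, CBSL and 5 regulators were named whatever their values, as were up to 8 passing pathway genes, the 5 nearest genes of ASNS and PHGDH, and the 2 most abundant transcripts of each enzyme, except that some genes these rules name are not reported here. The ASNS, PHGDH and PYCR1 transcripts named beyond those 2 were chosen after their values were seen. Alternatives left out each library, blocked on replicate number, fitted only the libraries compared, used all annotated genes, dropped the filter or raised it to 5 FPKM, changed the pseudocount to 0.1, scaled by quantiles or median of ratios, or dropped the trend. Summing CBS and CBSL was added after the data were seen.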

Additional observations from a re-analysis of the deposited data

Results flagged for a closer look

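The effects of overexpression and knockdown differed for 3 enzymes by a test of the difference itself, and each difference was below 0. ASNS gave -1.84 on the log2 scale (limma, adjusted p = 0.00094), PHGDH -0.87 (adjusted p = 0.0369) and PSAT1 -0.64 (adjusted p = 0.0374). Over the alternatives the adjusted p ranged from 0.000781 to 0.00509 for ASNS, from 0.0113 to 0.101 for PHGDH and from 0.0185 to 0.107 for PSAT1. Each of the 3 genes was lower in every OE_IFI6 library than in every OE_control library and overlapped between sh_IFI6 and sh_control. These differences rest on OE_control, whose libraries lie away from the rest, and OE_IFI6 against sh_control gave 0.28 for ASNS, 0.01 for PHGDH and 0.09 for PSAT1, none of which passed (limma).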

How the results depend on the processing

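No enzyme changed direction past the threshold at the gene level in any alternative run. The count of enzymes past it in OE_IFI6 against OE_control was 4, and 1 (ASNS) when only the libraries compared were fitted. Without 1 library it was 3 to 4. OE_control against sh_control gave 5, then 3 with only the libraries compared and 3 to 5 without 1 library, with 3 when sh_control replicate 2 was left out. The difference of effects gave 3, and 1 to 5 without 1 library: 5 without OE_IFI6 replicate 3 and 1 without each of 9 other libraries (OE_IFI6 replicates 1 and 2, OE_control replicate 3 and all sh_IFI6 and sh_control libraries). Interference and OE_IFI6 against sh_control stayed at 0 in every alternative. For transcripts of the enzymes, OE_IFI6 against OE_control gave 1, then 0 with no filter or quantile normalization and 2 with a minimum mean of 5 FPKM. OE_control against sh_control gave 2, then 1 with a pseudocount of 0.1 and 0 with no filter. Without 1 library these 2 counts were 0 to 2, and the other 3 transcript counts 0 to 1. Leaving out sh_control replicate 3 gave 1 transcript higher and 1 lower in OE_control against sh_control, where the main fit had 2 higher and 0 lower.

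Whole libraries of different groups correlated at 0.954 to 0.978 on the log2 scale. What follows are correlations of the deviations left after each gene's group mean was subtracted. By these deviations, same-numbered libraries of the overexpression pair correlated at 0.09, 0.25 and 0.12. Those of the interference pair correlated at -0.04, -0.01 and -0.03. Those of OE_control and sh_control correlated at 0.20, 0.01 and 0.12, and those of OE_IFI6 and sh_control at 0.13, 0.03 and 0.03. Of 12 libraries, 8 correlated best by these deviations with a library of their own number in another group. The labels do not say that the numbers pair the samples, so the main fit did not use them. Whether the numbers mark a shared batch was not tested. With the replicate block the gene counts were 3 for OE_IFI6 against OE_control (CTH lost, adjusted p = 0.0518), 2 for the difference of effects and 5 for the controls, and both transcript counts above were 0. The cause of these changes was not tested. Depth is unknown, so low FPKM values and single-transcript estimates have no counting error here.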

Other observations

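MYC, a regulator that was measured whatever its value, was highest in replicate 1 of 3 of the 4 groups. It had 105, 75.0 and 41.3 FPKM in OE_IFI6 libraries, against 36.9, 62.0 and 17.7 FPKM in OE_control libraries. In the interference groups it had 115, 37.8 and 36.7 FPKM in sh_IFI6, against 117, 40.5 and 36.3 FPKM in sh_control. The groups overlapped in both pairs.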
